A study of Homo sapiens with 12 samples.

Results

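The 9 genes described here carry the central steps of MHC class I antigen presentation: the heavy chains HLA-B, HLA-C, HLA-E and HLA-F, the light chain B2M, the peptide transporter subunits TAP1 and TAP2, the loading factor TAPBP and the transcriptional activator NLRC5. They were picked by gene symbol from 19516 genes with a symbol in the deposited table, all 9 were found and all 9 passed the filter on low counts. The series profiled RNA of 2 cultured human breast cancer lines, both known as triple-negative, as 4 groups of 3 libraries. HCC1937 cells were grown in RPMI and exposed to an aqueous Kalanchoe pinnata extract at 66 µg/mL (libraries E31 to E33), with control cells beside them (E25 to E27), and MDA-MB-231 cells were grown in DMEM and exposed at 140 µg/mL (E7 to E9), with their own controls (E1 to E3). Treatment lasted 72 h, the labels give the genotype of every sample as WT, and line, medium and concentration cannot be told apart. Whether replicates were separate cultures is not stated in the labels; the p-values therefore measure library spread that may be technical only.

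A class I molecule is a heavy chain bound to beta-2-microglobulin, the product of B2M, and to a short peptide. TAP1 and TAP2 pump peptides from the cytosol into the endoplasmic reticulum, and tapasin, the product of TAPBP, holds empty class I molecules at the transporter until a peptide binds. HLA-B and HLA-C present peptides to CD8 T cells and also bind receptors of natural killer cells, while HLA-E mostly presents leader peptides of other class I chains to NKG2A receptors and HLA-F has a more restricted distribution. NLRC5 has no DNA-binding domain of its own and acts on class I promoters through the RFX, CREB/ATF and NFY factors bound there. Interferon gamma is known to raise most of these genes, and tumours often lower them.

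Library totals ran from 16170342 to 31337259 counts. E7 stood apart from the other MDA-MB-231 extract libraries: its Spearman correlation across tested genes was 0.967 to E8 and 0.966 to E9, and mitochondrially encoded genes took 10.7% of its counts, against 2.76% to 4.78% in the other 11 libraries. The biological coefficient of variation was 0.296 in that group and 0.0409 to 0.0449 in the others. MDA-MB-231 results for the 9 genes are therefore given with and without E7, while other genes named below are given with E7 only. The lines are labelled epithelial cells: HCC1937 expressed all 6 epithelial markers examined, while MDA-MB-231 had no reads for CDH1 and KRT5 and had vimentin (VIM) at a mean of 4285 CPM with extract and 3735 CPM in controls (CPM is the count scaled to library size with TMM factors). Other mesenchymal markers went differently. In MDA-MB-231 FN1 averaged 113 CPM with extract and 432 CPM in controls, and ZEB1 5.22 CPM with extract and 60.3 CPM in controls. SPARC averaged 7.74 CPM with extract and 8.64 CPM in controls of MDA-MB-231, and 55.1 CPM with extract and 39.1 CPM in controls of HCC1937. Of 6 leukocyte markers PTPRC, CD3E, MS4A1 and LYZ averaged at most 0.315 CPM in each group. The other two were higher with extract: CD68 averaged 177 CPM with extract and 62.8 CPM in controls of HCC1937, and 461 CPM with extract and 308 CPM in controls of MDA-MB-231, and CD14 averaged 6.05 CPM with extract and 2.56 CPM in HCC1937 controls, and 0.565 CPM with extract and 0.457 CPM in MDA-MB-231 controls. The summed level of the 6 epithelial markers was 11222 to 11363 CPM with extract and 4365 to 4513 CPM in controls of HCC1937, and 1499 to 2624 CPM with extract and 729 to 776 CPM in controls of MDA-MB-231. Keratins carried this sum (KRT8 at 5720 CPM with extract and 2304 CPM in controls of HCC1937), while EPCAM (94.5 CPM with extract and 173 CPM in controls) and CDH1 (120.0 CPM with extract and 186 CPM in controls) were lower with extract in that line. The part of these markers in the results was not tested.

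7 of the genes lie in the MHC on the short arm of chromosome 6, from HLA-F (GRCh38, 29723434 to 29738532) through HLA-E (30489509 to 30494194), HLA-C (31268749 to 31272092), HLA-B (31353875 to 31357179), TAP2 (32821831 to 32838739) and TAP1 (32845209 to 32853704) to TAPBP (33299694 to 33314078). B2M is on chromosome 15 (44711517 to 44718145) and NLRC5 on chromosome 16 (56989557 to 57083520). Promoter sequences from RefSeq (GRCh38.p14) were at hand for 7 of the 9, all but HLA-E and NLRC5. Those of 5 members are printed because the members that moved together with extract in HCC1937 (HLA-B, HLA-C, TAP1) can be read there beside HLA-F and B2M, which were not called. Each is the 250 bases before the start of the gene, 5′ to 3′ on the gene's own strand, at chr6:31357180-31357429 (minus strand) for HLA-B, chr6:31272093-31272342 (minus) for HLA-C, chr6:29723184-29723433 (plus) for HLA-F, chr15:44711267-44711516 (plus) for B2M and chr6:32853705-32853954 (minus) for TAP1. Capitals mark matches, on either strand, to the core of the interferon-stimulated response element (GAAA, any 2 bases, GAAA), the gamma-activated site (TTC, any 3 bases, GAA), the NF-kB site, the CRE core (TGACG) and the CCAAT box (CCAAT).
HLA-B: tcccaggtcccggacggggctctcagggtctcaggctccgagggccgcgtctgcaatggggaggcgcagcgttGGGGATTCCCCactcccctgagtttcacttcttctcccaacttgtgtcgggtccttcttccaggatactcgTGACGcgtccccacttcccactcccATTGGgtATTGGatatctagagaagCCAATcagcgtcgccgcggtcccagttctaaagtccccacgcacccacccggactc
HLA-C: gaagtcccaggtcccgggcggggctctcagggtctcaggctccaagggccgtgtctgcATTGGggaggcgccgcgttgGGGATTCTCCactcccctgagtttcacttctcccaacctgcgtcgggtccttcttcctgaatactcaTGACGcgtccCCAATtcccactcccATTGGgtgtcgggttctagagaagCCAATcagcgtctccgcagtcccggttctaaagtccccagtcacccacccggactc
HLA-F: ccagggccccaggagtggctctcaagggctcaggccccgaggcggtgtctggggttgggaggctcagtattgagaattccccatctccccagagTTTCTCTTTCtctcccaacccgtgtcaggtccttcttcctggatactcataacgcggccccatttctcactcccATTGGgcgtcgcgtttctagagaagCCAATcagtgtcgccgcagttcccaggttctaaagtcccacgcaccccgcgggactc
B2M: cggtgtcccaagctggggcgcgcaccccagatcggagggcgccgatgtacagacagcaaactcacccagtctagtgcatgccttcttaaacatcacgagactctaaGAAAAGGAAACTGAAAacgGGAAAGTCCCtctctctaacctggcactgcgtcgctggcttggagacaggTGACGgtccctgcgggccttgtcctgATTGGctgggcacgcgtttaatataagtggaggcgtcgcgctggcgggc
TAP1: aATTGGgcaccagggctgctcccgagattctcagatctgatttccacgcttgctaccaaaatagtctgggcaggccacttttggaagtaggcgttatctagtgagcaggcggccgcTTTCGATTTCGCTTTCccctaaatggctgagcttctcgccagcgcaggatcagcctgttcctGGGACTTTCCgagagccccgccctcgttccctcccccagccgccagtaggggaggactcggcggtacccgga

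HLA-B and HLA-C both held an NF-kB match, a CRE core and CCAAT boxes; CREB/ATF and NFY factors are known to bind the CRE core and the inverted CCAAT box of class I promoters. In HLA-B the CRE core lay 106 to 102 bases before the start and in HLA-C 105 to 101 bases before it, each followed by an inverted CCAAT box (81 to 77 bases before the start in HLA-B and 80 to 76 in HLA-C). HLA-F had CCAAT boxes at matching places, a response element core 156 to 147 bases before the start and no CRE core in these letters. B2M held a CRE core, an inverted CCAAT box and overlapping response element cores from 144 to 129 bases before the start, and TAP1 overlapping response element cores from 134 to 119 bases before it with an NF-kB match closer to the start. B2M also held an NF-kB match, 125 to 116 bases before the start. In the promoters not printed, TAP2 and TAPBP each had a response element core and TAPBP an NF-kB match, so NF-kB matches stood in promoters of members that rose with extract in HCC1937 and of members that did not pass. Over 35116 promoters of the same length, a response element core was found in 3.02%, a gamma-activated site in 6.57%, an NF-kB match in 9.96%, a CRE core in 21.2% and a CCAAT box in 32.01%. The 7 member promoters held no gamma-activated site in these letters. These are reference alleles, not those of the lines, and a match is a description of the letters.

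**Figure D1:**
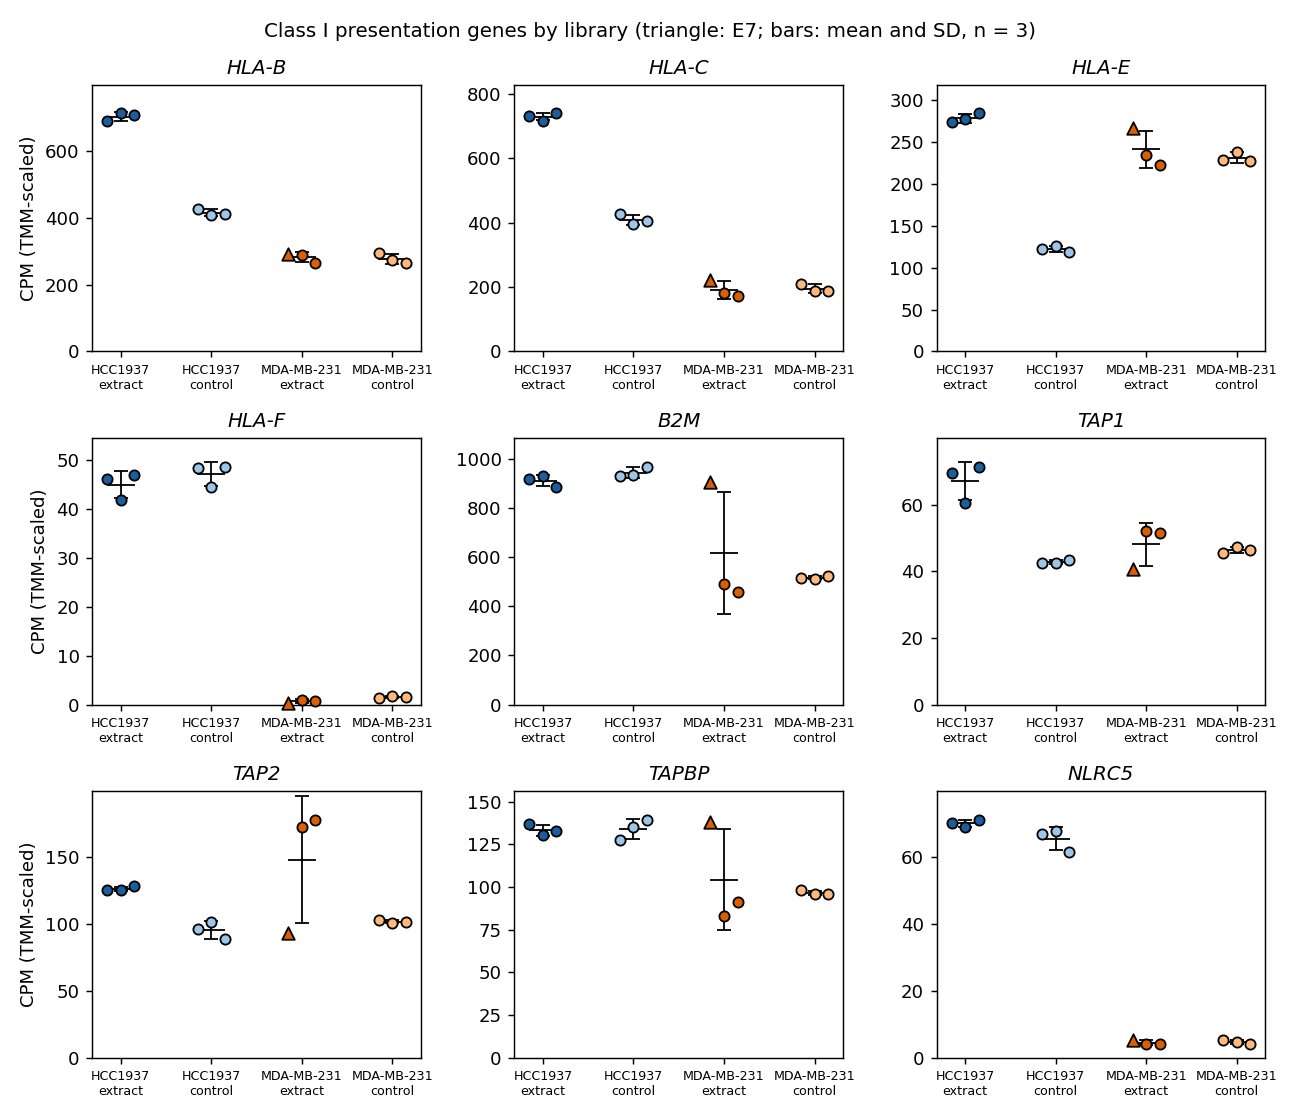
TMM-scaled CPM (y axis, from 0) of each of the 9 genes in the 12 libraries, grouped on the x axis; points are libraries, the triangle is E7, and the bar and whiskers are the mean and SD of 3 libraries. HLA-B, HLA-C, HLA-E, TAP1, TAP2 and NLRC5 of HCC1937 lay higher in each extract library than in each control library, NLRC5 by little. TAP2 and NLRC5 did not pass the test there, and the share of all genes separated in this way was not taken. HLA-F and NLRC5 were near 0 in MDA-MB-231.

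Per kilobase of the longest coding transcript, which allows levels of different genes to be compared, B2M was highest and HLA-B, HLA-C and HLA-E followed in every group. In HCC1937 with extract the level was 534 ± 13.7 CPM per kb for B2M, 469 ± 7.38 for HLA-C, 455 ± 8.38 for HLA-B and 107 ± 2.03 for HLA-E (SD, n = 3). In HCC1937 controls it was 553 ± 12.7 CPM per kb for B2M, 269 ± 6.50 for HLA-B, 263 ± 10.3 for HLA-C and 47.0 ± 1.33 for HLA-E, so HLA-B and HLA-C did not differ beyond their spread there. MDA-MB-231 levels were 362 ± 146 CPM per kb for B2M, 182 ± 9.75 for HLA-B, 123 ± 17.2 for HLA-C and 92.8 ± 8.63 for HLA-E with extract. MDA-MB-231 controls had 303 ± 4.04 CPM per kb for B2M, 179.5 ± 10.1 for HLA-B, 126 ± 8.26 for HLA-C and 89.0 ± 2.43 for HLA-E. The transport and loading genes were lower. In HCC1937 controls TAPBP stood at 35.6 ± 1.59 CPM per kb, TAP2 at 16.8 ± 1.18 and TAP1 at 14.5 ± 0.180, and in MDA-MB-231 controls TAPBP stood at 25.7 ± 0.307, TAP2 at 17.9 ± 0.188 and TAP1 at 15.7 ± 0.291. With extract in HCC1937, TAP1 at 22.7 ± 1.95 and TAP2 at 22.2 ± 0.300 CPM per kb did not differ beyond their spread. HLA-F and NLRC5 changed place most between the lines: 28.9 ± 1.45 and 9.58 ± 0.494 CPM per kb in HCC1937 controls, against 0.949 ± 0.151 and 0.704 ± 0.0871 in MDA-MB-231 controls. HLA genes resemble one another and related class I genes and pseudogenes, and how the authors' quantification split shared reads among them is not given in the sources used here, so levels of single HLA genes are uncertain to that extent.

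In HCC1937, the comparison of extract with control showed higher HLA-B, HLA-C, HLA-E and TAP1, by 1.57-fold to 2.28-fold, while B2M, HLA-F, TAPBP and NLRC5 had log2 fold changes between -0.068 and 0.10. Of the 9 genes 4 rose and 5 did not pass edgeR's quasi-likelihood test at an adjusted p under 0.05, where 32.7% of all tested genes rose and 39.1% fell. Their median log2 fold change was 0.40, beside -0.16 over all 14133 tested genes. Changes are relative to the other transcripts of a library, and in bulk RNA fewer cells of a kind and less RNA per cell cannot be told apart.

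HLA-E, the ligand of NKG2A, rose most. It stood at 274, 278 and 284 CPM in the extract libraries and at 122, 126 and 119 CPM in the controls of HCC1937. Every extract library was above every control, and the log2 fold change was 1.19 ± 0.08 (SE; 2.28-fold, edgeR adjusted p = 8.93e-08). HLA-C was at 732, 716 and 739 CPM with extract and at 426, 395 and 405 CPM in HCC1937 controls. HLA-B was at 689, 713 and 709.7 CPM with extract and at 427, 409 and 412 CPM in controls. Neither pair of groups overlapped, and the log2 fold changes were 0.83 ± 0.10 for HLA-C (1.78-fold, edgeR adjusted p = 1.27e-05) and 0.76 ± 0.08 for HLA-B (1.69-fold, edgeR adjusted p = 2.53e-06).

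TAP1 followed the heavy chains in HCC1937, with 69.3, 60.5 and 71.4 CPM in extract libraries and 42.5, 42.4 and 43.4 CPM in controls. Again the groups did not overlap (log2 fold change 0.65 ± 0.10, 1.57-fold, edgeR adjusted p = 0.000122). Its partner TAP2, the other subunit of the transporter, had 125, 125 and 128 CPM with extract and 96.6, 102 and 88.6 CPM in HCC1937 controls. These groups did not overlap either, but TAP2 did not pass (0.40 ± 0.19, edgeR adjusted p = 0.0735) in a fit whose spread is shared with E7. TAP2 passed when E7 was left out (0.42, edgeR adjusted p = 7.05e-10) and when only the HCC1937 groups were fitted (0.45, edgeR adjusted p = 6.67e-10), over a range of 2.41e-12 to 0.184 in 15 alternatives.

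The light chain, tapasin, HLA-F and NLRC5 did not pass in HCC1937. B2M had 917, 930.3 and 885 CPM in extract libraries and 928, 933 and 968 CPM in HCC1937 controls, with overlapping groups and a log2 fold change of -0.050 ± 0.20 (edgeR adjusted p = 0.843). TAPBP had 137, 130.4 and 133 CPM with extract and 127, 135 and 139 CPM in HCC1937 controls (-0.0076 ± 0.15, edgeR adjusted p = 0.979). HLA-F had 46.3, 41.8 and 47.0 CPM with extract and 48.4, 44.5 and 48.7 CPM in HCC1937 controls (-0.068 ± 0.14, edgeR adjusted p = 0.685). The activator NLRC5 had 70.2, 68.9 and 71.0 CPM with extract and 66.9, 67.6 and 61.5 CPM in HCC1937 controls. Its extract libraries lay just above the controls, without passing (0.10 ± 0.10, edgeR adjusted p = 0.403). It passed when E7 was left out of the shared fit (0.12, edgeR adjusted p = 0.0461), with DESeq2 (0.19, adjusted p = 0.0234) and with the HCC1937 groups alone (0.15, edgeR adjusted p = 0.00577), and was lower with the offset without E7 (-0.19, edgeR adjusted p = 0.000943).

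Counts of 2 genes in one library can be set against each other without scaling between libraries, but shifts tied to transcript length and GC content remain. There were 0.773 ± 0.0260 HLA-B counts per B2M count in HCC1937 extract libraries and 0.441 ± 0.0178 in controls (SD, n = 3). HLA-C per B2M was 0.801 ± 0.0324 with extract and 0.434 ± 0.0224 in HCC1937 controls, and HLA-E per B2M was 0.306 ± 0.0130 with extract and 0.130 ± 0.00623 in these controls. HLA-E also gained on HLA-B, at 0.396 ± 0.00554 with extract and 0.294 ± 0.0117 in HCC1937 controls. In these 4 ratios each extract library was above each control. The exact permutation test (two-sided) gave p = 0.1, the smallest that 3 libraries against 3 allow, and an adjusted p of 0.2 over the 10 ratio comparisons. In MDA-MB-231 the first 3 ratios overlapped between groups, at 0.497 ± 0.151 with extract and 0.538 ± 0.0329 in controls for HLA-B per B2M. HLA-B per B2M was 0.323 in E7 but 0.593 and 0.576 in E8 and E9, above every control (0.506 to 0.572). HLA-E per B2M was likewise 0.295 in E7 but 0.480 and 0.485 in E8 and E9, with controls at 0.434 to 0.469. HLA-C per B2M was 0.245 in E7, while E8 and E9 (0.368 and 0.373) lay within the controls (0.358 to 0.407). HLA-E per HLA-B overlapped as well. TAP1 per TAP2 was 0.436, 0.301 and 0.289 in E7, E8 and E9 and 0.442 to 0.468 in MDA-MB-231 controls, lower in each extract library (exact permutation p = 0.1). In HCC1937 TAP1 per TAP2 overlapped between groups, at 0.531 ± 0.0422 with extract and 0.449 ± 0.0374 in controls (exact permutation p = 0.2).

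**Figure D2:**
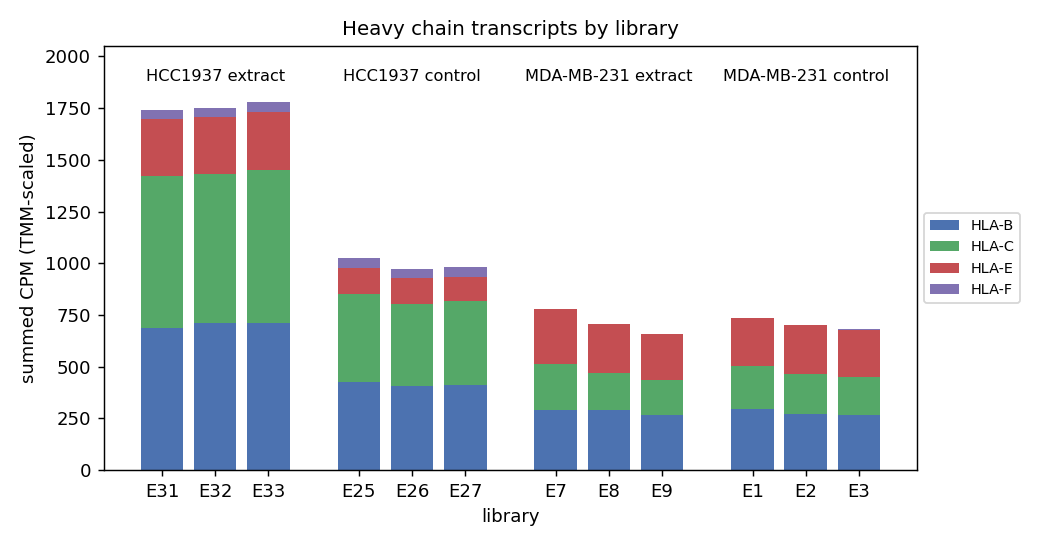
Summed TMM-scaled CPM of the 4 heavy chain genes (y axis, from 0) in each library (x axis), stacked by gene. The sum was 1741 to 1780 CPM in HCC1937 with extract and 974 to 1025 CPM in its controls, and 659.9 to 780.1 CPM with extract and 680.0 to 735 CPM in controls of MDA-MB-231.

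Length and base composition of the transcripts bear on this comparison, because short GC-rich transcripts were higher with extract as a class. HLA-B (1547 nt, 59.0% GC), HLA-C (1554 nt, 60.0%) and HLA-F (1635 nt, 57.7%) belong to the 1556 tested genes of at most 2 kb and over 54% GC, whose median log2 fold change was 0.91 in HCC1937 and 0.78 in MDA-MB-231. Of this class 63.0% rose in HCC1937 and 56.9% in MDA-MB-231. HLA-E (2601 nt, 54.8%), TAP1 (2959 nt, 57.5%) and TAPBP (3759 nt, 57.6%) belong to 2199 genes of 2 to 4 kb and over 54% GC. Their medians were 0.65 in HCC1937 and 0.52 in MDA-MB-231, and 59.3% and 52.8% of them rose. TAP2 (5684 nt, 49.1%) and NLRC5 (6822 nt, 58.0%) belong to classes over 5 kb, with medians of -0.38 and 0.077 in HCC1937. B2M is short and poor in GC (1705 nt, 39.4%), as are 292 genes with a median of -0.78 in HCC1937 and -0.15 in MDA-MB-231. An offset for the shift that length and GC content predict in each library was therefore fitted as well. With it, HLA-E was the heavy chain that still rose in HCC1937 (0.47 ± 0.06, edgeR adjusted p = 1.6e-05). HLA-B and HLA-C changed sign (-0.30 ± 0.10 and -0.21 ± 0.06, edgeR adjusted p = 0.0138 and 0.00563), TAP1 was at -0.077 ± 0.08 (edgeR adjusted p = 0.413), and HLA-F and TAPBP fell (-1.11 ± 0.14 and -0.61 ± 0.20). B2M and TAP2 rose (0.70 ± 0.07 and 0.47 ± 0.10). In all, 3 members rose and 4 fell in HCC1937 with the offset, beside 27.9% and 39.1% of all genes, and 3 and 5 when E7 was also left out of the shared fit, beside 31.9% and 44.4%. So the direction for HLA-B, HLA-C and B2M depends on whether length and composition are taken into account, while that for HLA-E does not. The ratios to B2M given before carry no such offset. With the offset B2M rose by more than HLA-E in HCC1937 (0.70 and 0.47), while HLA-B and HLA-C fell. The direction of these ratios thus depends on the offset too.

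**Figure D3:**
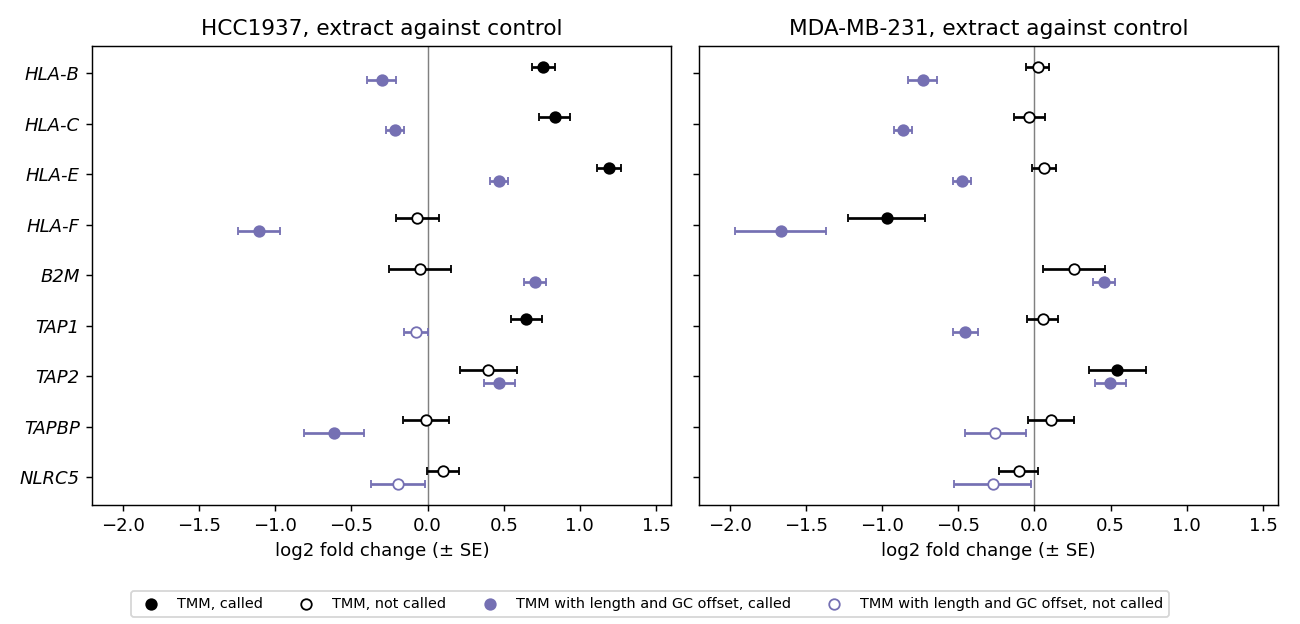
Log2 fold change of extract against control (x axis, whiskers ± SE) for each gene in HCC1937 and MDA-MB-231, from TMM scaling (black) and with a length and GC offset (purple); filled points passed an adjusted p under 0.05. HLA-E in HCC1937 and TAP2 in MDA-MB-231 passed on the same side of 0 in both fits, HLA-B at 0.76 and -0.30 in HCC1937 on opposite sides.

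In MDA-MB-231, most of the pathway did not pass the test between extract and control: 1 of the 9 genes rose (TAP2), 1 fell (HLA-F) and 7 did not pass, where 33% of all tested genes rose and 32.8% fell. The median log2 fold change of the 9 was 0.055, beside 0.00 over all tested genes. TAP2 had 93.3, 173 and 178 CPM in E7, E8 and E9 and 103, 101 and 102 CPM in MDA-MB-231 controls. E8 and E9 lay far above the controls and E7 below them, which gave 0.54 ± 0.19 (1.46-fold, edgeR adjusted p = 0.0233) and 0.79 without E7 (edgeR adjusted p = 1.5e-14). The call ended without E8 (0.42, adjusted p = 0.0841), without E9 (0.39, adjusted p = 0.0956), without each single control (adjusted p = 0.0552 to 0.0614) and when this line was fitted alone (adjusted p = 0.0959), within a range of 1.5e-14 to 0.0959 over 14 alternatives. HLA-F was scarce, with 5, 27 and 18 counts in E7, E8 and E9 and 27, 33 and 32 counts in MDA-MB-231 controls. That is 0.356, 1.04 and 0.805 CPM with extract and 1.33, 1.82 and 1.51 CPM in controls, with all extract libraries below the controls (-0.97 ± 0.25, 1.96-fold lower, edgeR adjusted p = 0.00516; -0.72 without E7). Its call ended when this line was fitted alone (adjusted p = 0.0502).

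The abundant heavy chains did not pass in MDA-MB-231. HLA-B had 292, 289.9 and 265 CPM with extract and 295, 274 and 264 CPM in controls (0.023 ± 0.08, edgeR adjusted p = 0.817). HLA-C had 222, 180.1 and 171 CPM with extract and 210.2, 189 and 187 CPM in MDA-MB-231 controls (-0.034 ± 0.10, edgeR adjusted p = 0.792). HLA-E had 266, 235 and 223 CPM with extract and 229, 239 and 227 CPM in MDA-MB-231 controls (0.061 ± 0.08, edgeR adjusted p = 0.517). For these 3 genes the groups overlapped. TAP1 had 40.7, 52.1 and 51.5 CPM with extract and 45.5, 47.2 and 46.5 CPM in MDA-MB-231 controls (0.055 ± 0.10, edgeR adjusted p = 0.663), with E7 lowest and E8 and E9 highest of the 6.

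For B2M and TAPBP, E7 lay on the other side of the MDA-MB-231 controls from E8 and E9. B2M had 904, 489 and 459 CPM in E7, E8 and E9 and 516, 509 and 523 CPM in MDA-MB-231 controls (0.26 ± 0.20, edgeR adjusted p = 0.281). TAPBP had 138, 83.2 and 91.2 CPM with extract and 97.9, 96.0 and 95.9 CPM in MDA-MB-231 controls (0.11 ± 0.15, edgeR adjusted p = 0.559). In both, E7 was above every control while E8 and E9 were below, and without E7 both fell slightly (-0.11 for B2M, edgeR adjusted p = 0.00461, and -0.14 for TAPBP, edgeR adjusted p = 0.0115). NLRC5 had 5.33, 4.11 and 4.12 CPM with extract and 5.42, 4.74 and 4.24 CPM in MDA-MB-231 controls, and the groups overlapped (-0.10 ± 0.13, edgeR adjusted p = 0.495).

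Without E7, TAP1 and TAP2 rose in MDA-MB-231 and HLA-C, HLA-F, B2M and TAPBP fell, 2 and 4 of the 9, beside 37.3% and 37.2% of all genes. With the length and GC offset and all libraries, TAP2 and B2M rose and HLA-B, HLA-C, HLA-E, HLA-F and TAP1 fell, 2 and 5 of the 9, beside 29.9% and 35.1% of all genes. HLA-C was then at -0.86 ± 0.06 (edgeR adjusted p = 7.53e-08), HLA-B at -0.73 ± 0.10 (edgeR adjusted p = 2.5e-05) and HLA-E at -0.47 ± 0.06 (edgeR adjusted p = 1.51e-05). Leaving E7 out of the offset fit gave 2 that rose and 7 that fell, beside 32.8% and 38.4% of all genes. TAP2 thus rose with and without the offset, and HLA-F fell with and without it.

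The extract effect differed between the lines for HLA-E, HLA-C, HLA-B, TAP1 and HLA-F, each higher in HCC1937 than in MDA-MB-231. These 5 of 9 passed the test of the difference of log2 fold changes, where 11.5% of all tested genes were higher in HCC1937 and 20.6% lower. The difference was 1.13 ± 0.11 for HLA-E (edgeR adjusted p = 2.56e-05), 0.87 ± 0.14 for HLA-C (edgeR adjusted p = 0.000777), 0.74 ± 0.11 for HLA-B (edgeR adjusted p = 0.000355) and 0.59 ± 0.14 for TAP1 (edgeR adjusted p = 0.00875). With the length and GC offset these 4 still passed, at 0.94 ± 0.08, 0.65 ± 0.08, 0.43 ± 0.13 and 0.38 ± 0.11 in that order, beside 17% of all genes higher and 21.8% lower. Without E7, 6 of the 9 were higher and 1 lower (24.7% and 33.3% of all genes), and with the offset as well 6 and 1 (24.8% and 30.4%). HLA-B, HLA-C, HLA-E and TAP1 also passed under each of the other alternatives tried, with adjusted p of at most 0.0256. HLA-F (0.90 ± 0.29, edgeR adjusted p = 0.0336) passed under 9 of 19 alternatives and missed the threshold under 10, with adjusted p up to 0.501. B2M (-0.31 ± 0.29), TAP2 (-0.14 ± 0.26), TAPBP (-0.11 ± 0.21) and NLRC5 (0.20 ± 0.16) did not pass. Doses differed between the lines, so this compares a response at 66 µg/mL with one at 140 µg/mL.

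**Figure D4:**
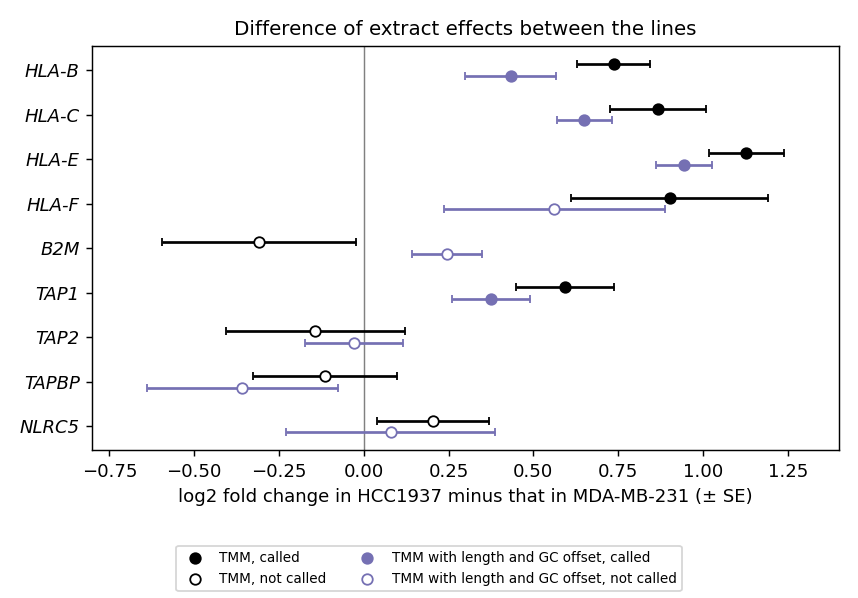
Log2 fold change with extract in HCC1937 minus that in MDA-MB-231 (x axis, whiskers ± SE) for each gene, from TMM scaling (black) and with a length and GC offset (purple); filled points passed an adjusted p under 0.05. HLA-E, HLA-C, HLA-B and TAP1 passed in both fits, at 1.13, 0.87, 0.74 and 0.59 without the offset.

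Before any extract the lines already differed in the pathway. In HCC1937 controls 6 of the 9 genes were higher than in MDA-MB-231 controls and 1 was lower, beside 38.7% and 36.7% of all tested genes, with a median log2 fold change of 0.58 against 0.036 over all genes. HLA-F was 30.4-fold higher (4.93 ± 0.19, edgeR adjusted p = 6.15e-10) and NLRC5 13.6-fold higher (3.77 ± 0.12, edgeR adjusted p = 1.97e-10), with 3994 and 5540 reads over the HCC1937 controls and 92 and 286 over the MDA-MB-231 controls. The classical chains and the light chain differed less. HLA-C was 2.09-fold higher (1.06 ± 0.10, edgeR adjusted p = 1.47e-06), B2M 1.83-fold (0.87 ± 0.20, adjusted p = 0.00213), HLA-B 1.5-fold (0.58 ± 0.08, adjusted p = 2.22e-05) and TAPBP 1.39-fold (0.47 ± 0.15, adjusted p = 0.0138). HLA-E went the other way and was 1.89-fold lower in HCC1937 controls (-0.92 ± 0.08, edgeR adjusted p = 6.06e-07). TAP1 (-0.12 ± 0.10) and TAP2 (-0.088 ± 0.19) did not pass. With the length and GC offset TAPBP was no longer called (0.18 ± 0.20), while TAP1 and TAP2 were called lower (-0.37 ± 0.08 and -0.29 ± 0.10), so that 5 were higher and 3 lower, beside 39.3% and 41.4% of all genes.

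Among cells with extract, 8 of the 9 genes were higher in HCC1937 than in MDA-MB-231, beside 34.1% of all tested genes higher and 39.7% lower; these groups are the same libraries as above, so the result is not independent of the others. HLA-F was 56.9-fold higher, NLRC5 15.7-fold, HLA-C 3.82-fold and HLA-B 2.50-fold. HLA-E, lower in HCC1937 without extract, was 1.15-fold higher with it (0.21 ± 0.08, edgeR adjusted p = 0.0312), a call that ended with the offset (-0.084, adjusted p = 0.206) and when E8, E9 or any HCC1937 extract library was left out. The call count fell to 5 of 9 in such fits: HLA-E, B2M (0.56 ± 0.20, adjusted p = 0.0256) and TAPBP (0.36 ± 0.15, adjusted p = 0.0494) lost theirs without E8, while HLA-B, HLA-C, HLA-F, NLRC5 and TAP1 (0.48 ± 0.10, adjusted p = 0.0012) kept theirs. Without E8, 4617 of 14272 tested genes were higher and 5564 lower. With the offset TAP1 also lost its call (0.0071, adjusted p = 0.94) and TAP2 was called lower (-0.32 ± 0.10, adjusted p = 0.0125), giving 5 higher and 1 lower beside 36% and 41.7% of all genes. Without E7, 8 were higher and 1 lower (39.5% and 44.2% of all genes), and with the offset as well 6 and 1 (38.8% and 44.6%).

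Without the offset the order for HLA-B and HLA-C was thus HCC1937 with extract, HCC1937 control and then MDA-MB-231, with the MDA-MB-231 groups indistinct. For HLA-E it was HCC1937 with extract, MDA-MB-231 with extract, MDA-MB-231 control and HCC1937 control, where the middle pair did not differ beyond its spread. For HLA-E the first place of HCC1937 with extract did not hold with the length and GC offset (-0.084 against MDA-MB-231 with extract, not called). The order for HLA-B and HLA-C did not hold with it either. HCC1937 with extract was then called lower than its controls (-0.30 for HLA-B and -0.21 for HLA-C). MDA-MB-231 with extract was also called lower than its controls (-0.73 and -0.86). For HLA-F and NLRC5 both HCC1937 groups were above both MDA-MB-231 groups. Of the heavy chain counts HLA-E took 15.7% to 15.98% of them with extract and 11.9% to 12.9% in controls of HCC1937, and 33.3% to 34.2% with extract and 31.1% to 33.9% in controls of MDA-MB-231.

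Other genes of the pathway were followed in lists, whose counts stand beside 32.7% of all tested genes that rose and 39.1% that fell in HCC1937, and 33% and 32.8% in MDA-MB-231. With the offset these shares were 27.9% and 39.1% in HCC1937, and 29.9% and 35.1% in MDA-MB-231. No list was tested as a set, and all list values come from fits that included E7. Of 5 genes that supply peptides, the immunoproteasome subunits and the PA28 activator, 2 rose, 1 fell and 2 did not pass in HCC1937 (median log2 fold change 0.37), and 3 rose and 2 did not pass in MDA-MB-231 (median 0.72). PSMB10 (0.72 in HCC1937 and 1.51 in MDA-MB-231) and PSMB8 (0.79 and 1.04) rose in both lines, and PSMB9, which shares its promoter region with TAP1, fell by 0.68 in HCC1937. With the offset all 5 fell in HCC1937 (median -0.73 on the log2 scale), and 2 rose and 2 fell in MDA-MB-231 (median -0.17). Of 6 genes of loading and trimming in the endoplasmic reticulum, 1 rose and 3 fell in HCC1937 (median -0.14), and 4 fell in MDA-MB-231 (median -0.44). With the offset 2 rose and 2 fell in HCC1937, and 2 fell in MDA-MB-231. Calreticulin, CALR, a chaperone of the loading complex, averaged 2170 CPM with extract and 1403 CPM in controls of HCC1937 (0.63), and 809 CPM with extract and 818 CPM in controls of MDA-MB-231 (-0.015, not passing). With the offset CALR was at -0.21 in HCC1937 (edgeR adjusted p = 0.0993) and fell in MDA-MB-231 (-0.63, edgeR adjusted p = 0.000186). The trimming peptidase ERAP2 averaged 9.92 CPM with extract and 39.8 CPM in HCC1937 controls (-2.0), and 1.37 CPM with extract and 9.06 CPM in MDA-MB-231 controls (-2.75), and fell in both lines with and without the offset.

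Of 6 further peptidases 2 rose and 4 fell in each line, with medians of -0.73 in HCC1937 and -0.77 in MDA-MB-231, and with the offset 2 rose and 2 fell in HCC1937, and 2 rose and 3 fell in MDA-MB-231. THOP1, which destroys peptides in the cytosol, rose (1.27 in HCC1937 and 0.81 in MDA-MB-231), and tripeptidyl peptidase TPP2 fell (-2.08 and -2.22). Of 8 genes for the factors that NLRC5 works with, 2 rose and 4 fell in each line, with medians of -0.55 in HCC1937 and -0.41 in MDA-MB-231. RFXANK of the RFX complex rose (1.20 in HCC1937 and 1.79 in MDA-MB-231), and CREB1 (-1.69 and -1.46) and NFYB (-2.30 and -1.06) fell. With the offset 1 rose and 4 fell in HCC1937, and 3 rose and 2 fell in MDA-MB-231. CREB1 then rose in HCC1937 (0.29, edgeR adjusted p = 0.0174) and was at 0.090 in MDA-MB-231 (edgeR adjusted p = 0.429). The calls of RFXANK in HCC1937 (0.099, edgeR adjusted p = 0.373) and of NFYB in MDA-MB-231 (-0.034, edgeR adjusted p = 0.777) ended.

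Genes that carry the interferon signal were mostly lower. Of 12, 8 fell and 1 rose in HCC1937 (median -1.17), and 7 fell and 2 rose in MDA-MB-231 (median -0.29), beside 39.1% and 32.8% of all genes falling. With the offset 10 of the 12 fell in HCC1937 (median -0.78) and 8 in MDA-MB-231 (median -0.45). JAK2, a kinase of the interferon gamma receptor, had the lowest value in both lines (-2.87 in HCC1937 and -2.52 in MDA-MB-231). IRF1 averaged 37.8 CPM with extract and 34.4 CPM in HCC1937 controls (0.13, not passing), and 34.8 CPM with extract and 28.5 CPM in MDA-MB-231 controls, where it rose (0.29); it was named after its values were seen. With the offset IRF1 fell in HCC1937 (-0.38, edgeR adjusted p = 0.000119) and was at -0.075 in MDA-MB-231 (edgeR adjusted p = 0.311). Of 5 NF-kB subunits 3 rose and 1 fell in HCC1937 (median 1.06), and 4 rose and 1 fell in MDA-MB-231 (median 0.56). With the offset 3 rose and 1 fell in each line (medians 0.46 in HCC1937 and 0.32 in MDA-MB-231). RELB rose (1.5 in HCC1937 and 1.28 in MDA-MB-231) and REL fell (-3.10 and -3.41). Of the 3 core genes of the PRC2 repressor, which silences class I genes in some tumours, SUZ12 fell in both lines (-2.73 and -2.33), 2 fell in HCC1937, and 2 fell and 1 rose in MDA-MB-231, with the same counts under the offset. A list of 4 genes linked to class I at the surface mixed directions of action, as not all of them limit it. Of these 4, 3 rose and 1 did not pass in each line (medians 0.55 in HCC1937 and 0.60 in MDA-MB-231). TMEM127, which is known to limit class I, was among those that rose (0.67 and 0.81). With the offset 2 rose in each line and SUSD6 fell in HCC1937 (-0.52, edgeR adjusted p = 0.00159).

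Likeness of pattern was measured as the root mean square difference of log2 CPM, each gene centred on its own mean, over the 12 libraries and 10827 candidate genes. Nearest to HLA-B were TNFAIP8L1 (0.101), CALR (0.112), STX10 (0.125), PIGU (0.129) and COL6A2 (0.132), in log2 units. Among the genes nearest to NLRC5 were MPZL3 (0.234), HSPA2 (0.243), CADM4 (0.243) and LLGL2 (0.254). Among the members the closest pairs were B2M with TAPBP (0.186), TAP1 with TAP2 (0.281) and HLA-B with HLA-C (0.286).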

How the data were processed

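Per the submitters' processing notes, reads were checked with FastQC 0.12.1, trimmed with fastp 0.23.4 and quantified with Salmon 1.10.3 on GRCh38, with DESeq2 and R 4.4.1 also named; which annotation and gene summary were used is not given in the sources used here. Values as deposited are expected counts per gene, unscaled, and were rounded to whole counts. Groups come from the sample titles, since the cell line field counts upward from sample to sample. The tests ran in edgeR 4.0.16 (R 4.3.3): filterByExpr, TMM, 1 fit of all 12 libraries in 4 groups, quasi-likelihood F tests and Benjamini-Hochberg adjustment over 14133 genes. The code was tested on simulated data. The length and GC offset (mgcv 1.9.3) used the longest coding transcript in GENCODE release 29, known for 99.4% of tested genes. Alternatives were RLE and upper quartile scaling, no mitochondrial genes, no filter, DESeq2 1.42.0, fits of the compared groups alone and leaving out each library. All members are named; from each list the highest and lowest fold change in either line could be. Some genes that this rule or the likeness measure would name are not reported here. Members and lists were chosen with earlier results of these data known.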

Additional observations from a re-analysis of the deposited data

Results flagged for a closer look

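The extract effect differed between the lines by a test of the difference itself for 5 of the 9 genes, each as the log2 fold change in HCC1937 minus that in MDA-MB-231 with edgeR's adjusted p. HLA-E differed by 1.13 (1.19 in HCC1937 and 0.061 in MDA-MB-231, adjusted p = 2.56e-05). HLA-C differed by 0.87 (0.83 and -0.034 in the same order of lines, adjusted p = 0.000777), HLA-B by 0.74 (0.76 and 0.023, adjusted p = 0.000355) and TAP1 by 0.59 (0.65 and 0.055, adjusted p = 0.00875). HLA-F differed by 0.90 (-0.068 and -0.97, adjusted p = 0.0336) on 50 reads with extract and 92 in controls of MDA-MB-231.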

How the results depend on the processing

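No paired analysis was possible because the groups share no library numbers. In MDA-MB-231, 1 member rose and 1 fell; leaving out 1 library gave 0 to 2 and 1 to 4, the offset 2 and 5, the offset without E7 (chosen after seeing the data) 2 and 7, the line's groups alone 0 and 0, and a log2 change of at least 1 also 0 and 0. Of 14272 to 14366 genes tested with 1 library left out, 4211 to 5363 rose and 4256 to 5349 fell. With the line's groups alone 3903 of 12860 genes rose and 4111 fell. The share of all genes with a log2 change of at least 1 was not taken. In HCC1937, 4 rose in each fit that left out a library of this line, 3 with the offset (also without E7), 5 with RLE, and 6 with DESeq2, with the line's groups alone and without E7; at least 1 log2 unit left 1, and 4 fell with the offset, 5 with the offset without E7. Of 14247 to 14337 genes tested with a library of this line left out, 4255 to 4434 rose. Of 14133 genes 4965 rose with RLE and 5086 with DESeq2. With the line's groups alone 5516 of 12993 rose, and without E7 5471 of 14360. The difference between lines gave 4 to 6 higher and 0 to 1 lower over single libraries left out, and 1 lower with the offset without E7. Of 14247 to 14366 genes tested with single libraries left out, 1340 to 3554 were higher and 2344 to 4780 lower. Among controls, 3 were lower with the offset and 3 with these groups alone, where 6131 of 13834 genes were lower. With extract, 5 were higher under upper quartile scaling, the offset and the groups alone, and 5 to 8 over single libraries, with 0 to 1 lower and 1 lower with the offset, also without E7. Upper quartile scaling gave 4408 of 14133 genes higher, and the groups alone 4111 of 13259. Of 14272 to 14366 genes tested over single libraries, 4494 to 5670 were higher and 5363 to 6352 lower.

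Several changes of sign came with the offset or without E7. In MDA-MB-231 the offset gave -0.73 (HLA-B), -0.47 (HLA-E) and -0.45 (TAP1), the offset without E7 -0.60, -0.55 and -0.38 and -0.65 (TAPBP), and leaving out E7 alone -0.11 (B2M) and -0.14 (TAPBP), where other single libraries left out gave up to 0.43 for B2M and 0.25 for TAPBP. In HCC1937 the offset gave -0.30 (HLA-B), -0.21 (HLA-C), 0.70 (B2M) and -0.077 (TAP1), and without E7 -0.30, -0.20, 0.70, -0.075 and -0.19 (NLRC5). The difference between lines turned to 0.34 for B2M with the offset without E7 and to 0.16 for TAPBP without E7 (down to -0.24 over other single libraries). With extract, HCC1937 against MDA-MB-231, the offset gave -0.084 (HLA-E) and -0.18 (TAPBP), and without E7 -0.015 (HLA-E) and -0.063 (TAP1). Members near 0 that did not pass also changed sign with scaling or single libraries, such as HLA-C in MDA-MB-231 (-0.034, and 0.041 without E9), HLA-B there (0.023, and -0.040 with upper quartile scaling) and B2M in HCC1937 (-0.050, and 0.044 with RLE and with DESeq2). The causes were not tested. RLE scaling moved the median of all genes by 0.11 for the difference between lines, and upper quartile scaling by -0.11 between the extract groups. Depth limits HLA-F in MDA-MB-231, where 3 counts are 0.115 to 0.213 CPM; this covers counting error only.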

Other observations

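Relatives of class I, some of them ligands of natural killer receptors, were also measured, in fits that included E7. Of 8 tested class I-like genes 3 rose and 2 fell in HCC1937, and 2 rose and 3 fell in MDA-MB-231. With the offset 3 rose and 2 fell in HCC1937, and 2 rose and 4 fell in MDA-MB-231. Of the stress-induced ligands of NKG2D, MICA and MICB rose in HCC1937 and fell in MDA-MB-231, ULBP2 rose in both lines (1.0 in HCC1937 and 0.48 in MDA-MB-231), and ULBP1 fell in HCC1937 (-1.25). MICA averaged 36.7 ± 1.05 CPM with extract and 19.7 ± 1.11 CPM in controls of HCC1937 (log2 fold change 0.90, edgeR adjusted p = 1.3e-06, SD, n = 3), and 89.6 ± 7.43 CPM with extract and 106.5 ± 2.86 CPM in controls of MDA-MB-231 (-0.25, edgeR adjusted p = 0.0169). MICB averaged 9.00 ± 0.524 CPM with extract and 4.70 ± 0.446 CPM in HCC1937 controls (0.94, edgeR adjusted p = 0.000915), and 52.4 ± 15.02 CPM with extract and 89.5 ± 3.09 CPM in MDA-MB-231 controls (-0.77, edgeR adjusted p = 0.00201). The difference between lines was 1.15 for MICA and 1.70 for MICB (edgeR adjusted p = 2.92e-05 and 0.000489), and 0.96 and 1.65 with the length and GC offset. With that offset neither passed in HCC1937 (0.11 and 0.44), nor did ULBP2 in MDA-MB-231 (-0.092) or ULBP1 in HCC1937 (-0.66). MICA, ULBP1 and ULBP2 were named after their values were seen. Of 7 class II presentation genes 5 were tested, and none of the 5 passed in either line by edgeR without the offset. With the offset 1 rose and 2 fell in HCC1937, where CIITA rose (0.74, edgeR adjusted p = 0.0376) and HLA-DMA fell (-1.52); HLA-DMA was named after its values were seen. The activator CIITA averaged 1.55 CPM with extract and 1.11 CPM in HCC1937 controls, and 1.81 CPM with extract and 2.37 CPM in MDA-MB-231 controls.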
